A study of Mus musculus with 5 samples.

Results

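Solute carriers are the membrane proteins that move amino acids, sugars, ions, metals, lipids, nucleosides and metabolites across the plasma membrane and the membranes of organelles. A gene was taken as a member when its symbol began with Slc, a family number, the letter a and a member number, and when it held 20 or more expected counts summed over all libraries. Slc2a1 and Slc7a11 were left out by name. Of 224 matching symbols, 91 were members, 131 lay under 20 counts and 2 were left out. They stand among 14156 listed genes, 6301 of which held 20 or more counts. The members were chosen by their summed count over both genotypes, so their levels are given as a description. Just inside the limit, Slc11a2, Slc2a9, Slc44a1 and Slc7a1 held 20 counts each, and just outside it Slc1a5 and Slc25a45 held 19.

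The cells were mesenchymal stem cells grown from femur marrow of C57BL/6 mice aged 6 to 8 weeks, cultured in medium with 12% serum and used between passages 1 and 3. Libraries came from 3 samples of Bmal1-knockout cells and 2 samples of wild type cells, and the series asks which genes BMAL1 regulates in them. BMAL1, encoded by Arntl, pairs with CLOCK as the transcription factor that drives the circadian clock. Whether the knockout was of the whole body or of chosen cells, and whether replicates came from separate mice or cultures, is not stated in the labels, so p-values measure only the spread between these samples.

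Solute carriers work along gradients rather than by splitting ATP. Exchangers swap one substrate for another, cotransporters draw a solute in with sodium or protons, and uniporters let it run downhill. Some need a partner at the membrane: the amino acid exchangers of the Slc7 family pair with a heavy chain of the Slc3 family, and the lactate carriers of the Slc16 family pair with basigin or embigin. In marrow stroma, carriers for amino acids, phosphate and vitamin C supply the cells that lay down collagen and mineral, and in macrophages carriers for iron and other metals serve the handling of engulfed material.

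The libraries were shallow. Expected counts per library totalled 211623 to 281990, and the members made up 0.628% to 0.690% of them. Levels are given as CPM, counts per 1000000 of the scaled total of tested genes, on which 3 counts, the limit that a count of 0 allows, come to 12.1 to 15.9 CPM (counting error only). Counts of the targeted gene Arntl were 4, 1 and 2 (knockout) and 5 and 0 (wild type), too few to check the labels. Of 20 macrophage and monocyte markers, all 20 were tested and 10 were lower in the knockout, with sums of 11623 to 12866 CPM against 18809 to 19323 CPM in wild type. Of 20 stromal markers, 18 were tested and 13 were higher, with sums of 21703 to 23628 CPM against 9180 to 9333 CPM. The cultures labelled as stem cells thus held macrophage transcripts in every library, the stromal markers Thy1 and Lum were at or near 0, and both marker sums moved with genotype. Sums of osteoclast markers (4 of 7 listed, 1 of 2 tested lower) were 146 to 211 CPM against 308 to 428 CPM, and those of neutrophil markers (3 of 8 listed, 1 tested, which did not pass) 19.2 to 56.6 CPM against 65.8 to 90.4 CPM. The part of these shifts in any carrier's difference was not tested, and in bulk samples fewer cells of a type and less RNA per cell cannot be told apart.

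Choline, calcium, amino acid, nucleoside, zinc and iron carriers each gave 1 member past the test, 6 in all. Of the 91, 40 passed the filter on low counts and were tested in a fit over 3710 genes. Slc44a3 and Slc24a5 were higher in the knockout, and Slc43a2, Slc29a3, Slc30a7 and Slc25a37 were lower. The 2 higher members are 5% of those tested, against 8.19% of all tested genes, and the 4 lower are 10%, against 8.14% of all tested genes. The other 34 tested members did not pass. The median log2 fold change was 0.07 over the tested members and 0.01 over all tested genes. At an unadjusted p under 0.05 there were 12 members. Shares this near the background are no result about the family, and what follows concerns single carriers. Slc44a3, Slc24a5 and Slc43a2 passed also with DESeq2, without the low-count filter and with replicate numbers as a block. Slc30a7, Slc25a37 and Slc29a3 passed in none of these 3, and DESeq2 gave Slc29a3 no adjusted p.

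**Figure D1:**
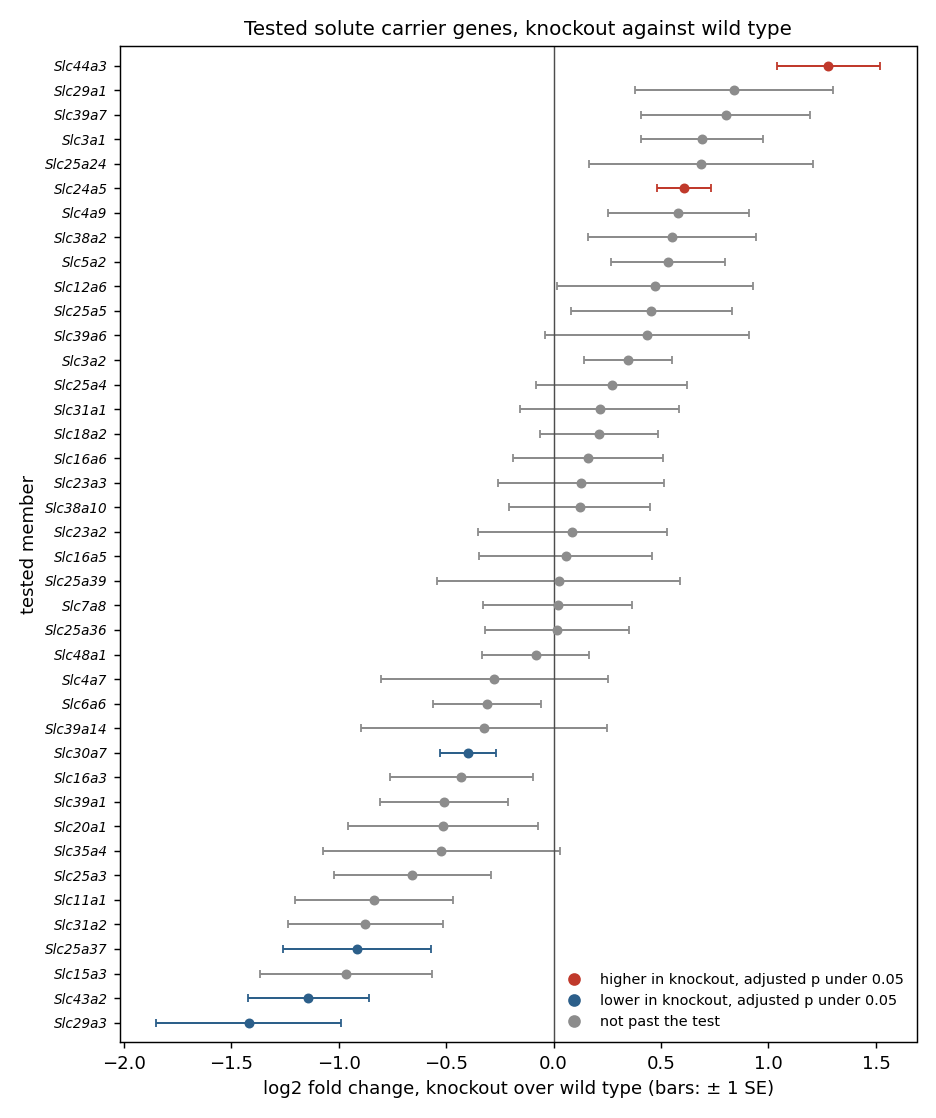
Log2 fold change (x axis, knockout over wild type, bars ± 1 SE) of the 40 tested solute carrier genes (y axis), from the largest rise at the top to the largest fall at the bottom. Red points are the 2 members that were higher, blue points the 4 that were lower and grey points the 34 that did not pass. The values run from -1.42 for Slc29a3 to 1.28 for Slc44a3.

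Slc44a3, named as a choline transporter-like protein, rose most. It was at 250, 409 and 356 CPM in knockout 1, 2 and 3 and at 164 and 112 CPM in wild type 1 and 2. Every knockout library lay above both wild type libraries. The level was 2.43-fold higher (log2 fold change 1.28 ± 0.24 SE, adjusted p = 3.41e-06), and the call held with each library left out in turn (log2 fold change 1.04 to 1.58). The gene (Entrez 213603) lies on the reverse strand at chr3:121459528-121532344 of mm10. Its exons share 349 bases with A530020G20Rik on the other strand, and its neighbour Cnn3, an actin-binding calponin gene 1321 bases away on the other strand, was also higher, with 48, 39 and 43 counts against 2 and 10 (log2 fold change 2.68 ± 0.39 SE, adjusted p = 3.21e-10). Whether the libraries kept strand is not stated in the labels, and without strand the reads of overlapping opposite genes cannot be told apart. Slc44a3 made up most of its substrate group: the 4 members for choline and fatty acids summed to 312, 485 and 449 CPM in the knockout and to 263 and 191 CPM in wild type. The other members of the group, Slc44a1, Slc44a2 and the fatty acid transport protein gene Slc27a1, held 20 to 36 counts each and were not tested.

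Slc24a5 encodes a potassium-dependent sodium-calcium exchanger best known from the melanosomes of pigment cells. It was the most abundant member on either scale. It was at 1374, 1707 and 1586 CPM against 1113 and 925 CPM in wild type. The groups did not overlap, and the level was 1.52-fold higher (log2 fold change 0.61 ± 0.12 SE, adjusted p = 2.67e-05). Leaving out wild type 2, the lower of its group, ended the call (log2 fold change 0.48, adjusted p = 0.0981). The gene (Entrez 317750) lies on the forward strand at chr2:125068127-125088677. Of its exon bases, 921 lie opposite exons of Myef2, which itself held 21, 9 and 26 counts against 8 and 12 (adjusted p = 0.231). With 1448 counts, Slc24a5 held most of the sum of its substrate group, the carriers of sodium, protons, bicarbonate, chloride and calcium, which came to 1984 ± 163 CPM in the knockout (SD, n = 3) and 1430 ± 196 CPM in wild type (SD, n = 2).

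Slc43a2 encodes a sodium-independent carrier of large neutral amino acids such as leucine and phenylalanine. It was at 106, 99.8 and 93.1 CPM against 216 and 223 CPM in wild type. Its libraries were close to each other within each group and far apart between groups. The level was 2.20-fold lower (log2 fold change -1.14 ± 0.28 SE, adjusted p = 7.78e-04), and the call held with each library left out (log2 fold change -1.18 to -1.09). The gene (Entrez 215113) lies on the forward strand at chr11:75529915-75577575, and 922 of its exon bases lie opposite Gm45606.

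Slc29a3 encodes the equilibrative nucleoside transporter of lysosomes, whose loss in people and mice gives a histiocyte disorder. It was at 24, 42.8 and 32.4 CPM against 113 and 63.8 CPM in wild type. Each knockout library lay below both wild type libraries, but wild type 1 was far above wild type 2. The level was 2.67-fold lower (log2 fold change -1.42 ± 0.43 SE, adjusted p = 0.00966), and leaving out wild type 1 ended the call (log2 fold change -0.95, adjusted p = 0.478). Of the 6 called members it is the one with no exon bases opposite another gene. It lies (Entrez 71279) on the reverse strand at chr10:60712072-60752849.

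Slc30a7 encodes a zinc carrier that loads the Golgi. It was at 764, 922 and 821 CPM against 1132 and 1068 CPM in wild type. The groups did not overlap, but the difference was small. The level was 1.32-fold lower (log2 fold change -0.40 ± 0.13 SE, adjusted p = 0.0193). The call was lost without knockout 3 (adjusted p = 0.0698), without wild type 1 (0.261) and without wild type 2 (0.149). The gene (Entrez 66500) lies on the reverse strand at chr3:115938973-116007414 and has 1165 exon bases opposite Gm6649.

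Slc25a37 encodes mitoferrin, which brings iron into mitochondria for haem and iron-sulfur clusters. It was at 91.3, 76.1 and 44.5 CPM against 164 and 95.7 CPM in wild type. The highest knockout library came close to the lower wild type library without reaching it. In FPKM, a level per length and library size, the groups overlapped, at 10.9, 11.3 and 6.06 against 17.6 and 9.85. The deposited length of Slc25a37 ran from 4738 to 7053 bases between libraries, beside 6021 bases of GENCODE exons. The level was 1.88-fold lower (log2 fold change -0.91 ± 0.34 SE, adjusted p = 0.0487). The call was lost without knockout 2 (adjusted p = 0.109), knockout 3 (0.270) or wild type 1, where the log2 fold change was -0.48 (0.634). The gene (Entrez 67712) lies on the reverse strand at chr14:69241848-69285544 and has 381 exon bases opposite Gm31748.

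**Figure D2:**
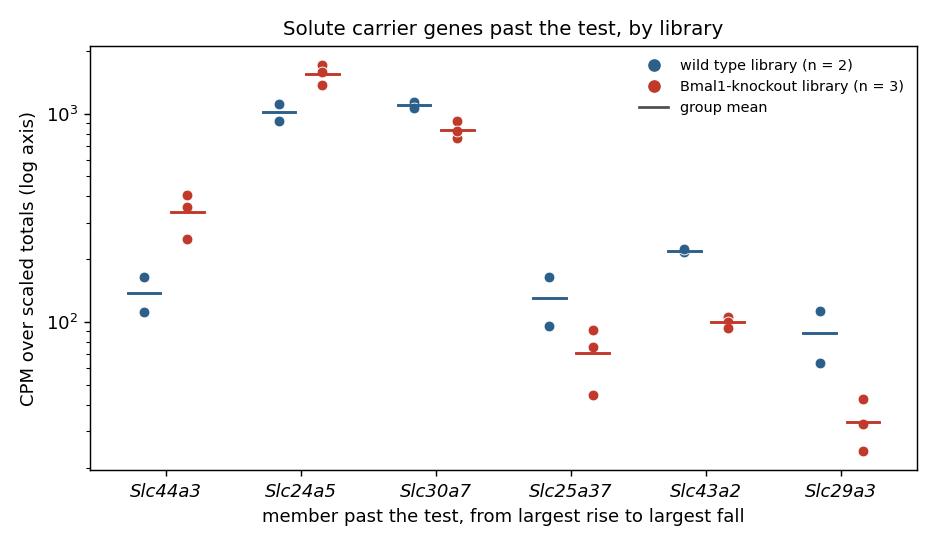
CPM (y axis, log) of the 6 members past the test in each of the 5 libraries, with blue points for wild type (n = 2), red points for knockout (n = 3) and bars for group means. Slc44a3 and Slc24a5 have all red points above the blue, and in Slc30a7, Slc25a37, Slc43a2 and Slc29a3 all red points lie below.

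At least 100 exon bases opposite another gene were found in 33 of the 91 members, in 17 of the 40 tested (42.5%, against 34.3% of all tested genes matched to GENCODE) and in 5 of the 6 called (83.3%, against 38.5% of all genes past the test). Without those members, 23 were tested, 0 were higher and 1, Slc29a3, was lower. The partners opposite the called members were Myef2, whose values are above, and 4 gene models whose symbols are not listed in any library.

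Amino acid carriers were one of the largest groups, with 16 members, 7 of them tested. None was higher, and Slc43a2 alone was lower. Slc3a2, the heavy chain that carries the light chains of the large neutral amino acid exchangers to the surface, had the highest FPKM of the group (a level per length and library size), with 100, 96.6 and 95.8 FPKM in the knockout and 80.6 and 75.4 FPKM in wild type. All knockout values lay above the wild type values, yet the difference did not pass (log2 fold change 0.35 ± 0.20 SE, adjusted p = 0.261). Slc3a1, its counterpart for cystine and basic amino acids in kidney and gut, was at 231, 214 and 142 CPM against 132 and 106 CPM. The groups did not overlap, and it did not pass (0.69 ± 0.28, adjusted p = 0.0757), though it did with replicate numbers as a block (adjusted p = 0.0305) and without knockout 3 (0.0333). It did not pass with DESeq2 (adjusted p = 0.260), with limma voom (0.111) or without the low-count filter (0.210). Slc6a6, the taurine carrier, was at 216, 152 and 174 CPM against 254 and 191 CPM, overlapping between groups (-0.31 ± 0.25, adjusted p = 0.449). Slc38a2, the sodium-coupled glutamine and alanine carrier that starved cells induce, was at 86.5, 47.5 and 125 CPM against 61.1 and 58.5 CPM, again overlapping (0.55 ± 0.39, adjusted p = 0.371). The group sum was 1358 ± 49.4 CPM in the knockout (SD, n = 3) and 1320 ± 33.1 CPM in wild type (SD, n = 2).

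Metal and haem carriers were as many, with 16 members and 9 tested, of which Slc30a7 was lower and 8 did not pass. The group sum was 1773, 1669 and 1760 CPM in the knockout and 2100 and 2052 CPM in wild type, without overlap, and Slc30a7 was by far the largest in it. Without Slc30a7 the sums of the rest overlapped between genotypes. Slc48a1, the haem carrier of endosomes and lysosomes, was at 231, 152 and 218 CPM against 164 and 266 CPM, an overlap with no passing difference (-0.08 ± 0.25, adjusted p = 0.872). Slc31a2, which acts in the release of copper from endosomes, was at 91.3, 61.8 and 40.5 CPM against 132 and 101 CPM. Its groups did not overlap, and it passed with limma voom (log2 fold change -0.93, adjusted p = 0.0484) but not in the edgeR fit (-0.88 ± 0.36, adjusted p = 0.0783). Slc11a1, the metal carrier of the macrophage phagosome, was at 76.9, 28.5 and 76.9 CPM against 98.7 and 122 CPM, also without overlap and without passing (-0.83 ± 0.37, adjusted p = 0.106). Its neighbour Ctdsp1, 5447 bases away on the same strand, was lower (log2 fold change -1.06 ± 0.15 SE, adjusted p = 2.50e-10). Slc39a7, the zinc exporter of the endoplasmic reticulum, had the higher mean in the knockout without passing, at 111, 80.8 and 97.1 CPM against 47 and 63.8 CPM (0.80 ± 0.40, adjusted p = 0.162). The iron exporter Slc40a1 and the iron importer Slc11a2 were too low to test, with 17 counts against 5 and 15 against 5.

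Mitochondrial carriers numbered 15, with 7 tested. Slc25a37 was lower and 6 did not pass. Slc25a4, an ADP/ATP exchanger, was at 130, 61.8 and 113 CPM against 103 and 63.8 CPM, and the groups overlapped (0.27 ± 0.35, adjusted p = 0.671). Slc25a5, the other ADP/ATP exchanger measured, was at 101, 99.8 and 89.0 CPM against 51.7 and 90.4 CPM, with wild type 2 inside the knockout range (0.45 ± 0.37, adjusted p = 0.461). Slc25a3, which imports phosphate, was at 38.4, 90.3 and 72.8 CPM against 132 and 79.7 CPM (-0.66 ± 0.36, adjusted p = 0.226). Slc25a36, a carrier of pyrimidine nucleotides, had nearly equal group means (0.01 ± 0.33, adjusted p = 0.984). None of these 4 separated the genotypes.

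The carriers of vitamins, nucleosides and peptides had 5 tested members of 7. Slc29a3 was lower. Slc15a3, a proton-coupled peptide and histidine carrier of lysosomes, was at 52.8, 66.6 and 24.3 CPM against 98.7 and 85.0 CPM. The groups did not overlap, it did not pass (-0.97 ± 0.40, adjusted p = 0.0793), and with limma voom it did (-1.11, adjusted p = 0.0406). Of its exon bases, 1541 lie opposite Tmem132a, which was far more abundant and was lower, with 100, 105 and 136 counts against 294 and 225 (log2 fold change -1.33, adjusted p = 2.29e-20). The surface nucleoside carrier Slc29a1 was at 57.7, 61.8 and 80.9 CPM against 42.3 and 31.9 CPM, without overlap, and did not pass (0.84 ± 0.46, adjusted p = 0.218). Slc23a2, the vitamin C carrier, was at 43.2, 71.3 and 52.6 CPM against 56.4 and 47.8 CPM, overlapping. Slc23a3 overlapped too (0.13 ± 0.39, adjusted p = 0.874), and its deposited length of 6845 bases exceeds the 2167 bases of its GENCODE exons. The longest deposited length exceeds the GENCODE exons in 9 of the 91 members. The called Slc24a5 (2493 against 2330 bases) and Slc25a37 (7053 against 6021 bases) are among them.

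The remaining groups held few tested members and no call beyond Slc24a5 and Slc44a3. Among the ion carriers, Slc4a9, a bicarbonate carrier known from kidney, was at 149, 76.1 and 174 CPM against 94.0 and 85.0 CPM, overlapping (0.58 ± 0.33, adjusted p = 0.238). Slc5a2, the sodium-glucose cotransporter of the kidney tubule, held most of the counts of the sugar group, at 173, 271 and 206 CPM against 146 and 154 CPM. Its groups did not overlap and it did not pass (0.53 ± 0.26, adjusted p = 0.169). Among 3 tested monocarboxylate carriers, Slc16a3, which exports lactate from glycolytic cells, was at 115, 95.1 and 60.7 CPM against 98.7 and 144 CPM, and Slc16a6 at 115, 80.8 and 105 CPM against 75.2 and 106 CPM. Both overlapped. Slc18a2, which loads monoamines into vesicles, was at 168, 171 and 178 CPM against 174 and 122 CPM, and its groups overlapped (0.21 ± 0.27, adjusted p = 0.671). Slc20a1, a sodium-phosphate cotransporter, was at 33.6, 47.5 and 48.6 CPM against 61.1 and 63.8 CPM, without overlap and without passing (-0.51 ± 0.44, adjusted p = 0.482). Slc35a4, of the nucleotide sugar carrier family, was at 57.7, 23.8 and 24.3 CPM against 37.6 and 63.8 CPM, overlapping, and did not pass (adjusted p = 0.585). It alone of the 4 members of its group was tested. All 4 had a ratio below 1, as did 43 of all 91 members, and the group sums overlapped between genotypes. The 4 symbols that name no transporter (Slc4a1ap, Slc7a6os, Slc36a1os and the scaffold gene Slc9a3r1) were all too low to test.

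**Figure D3:**
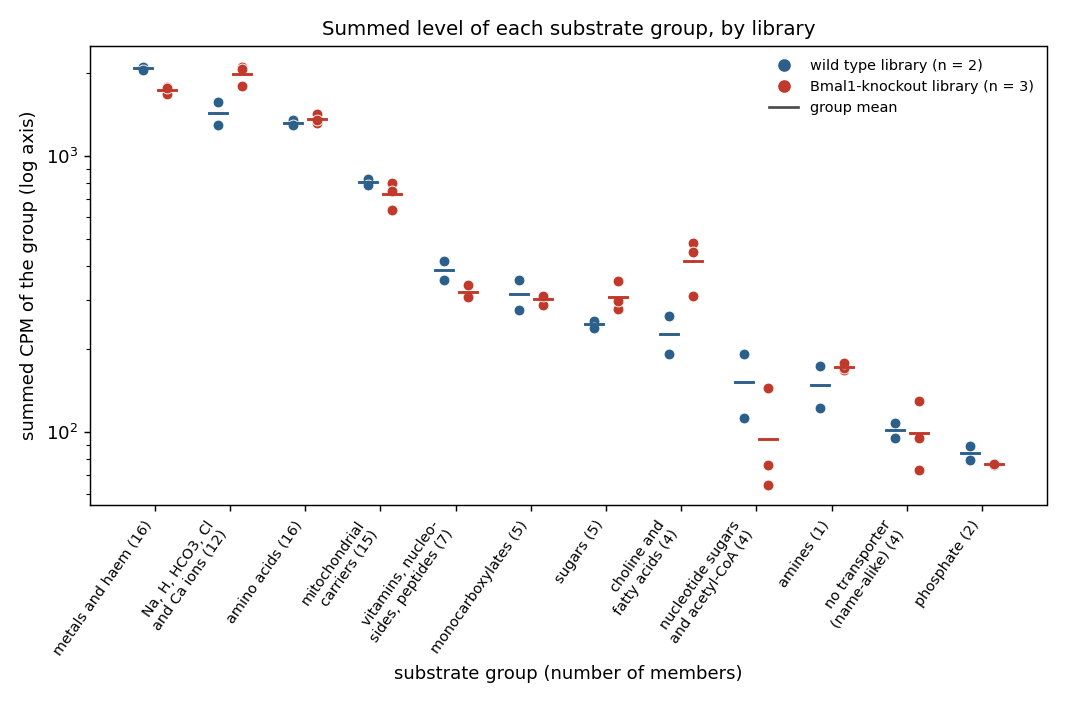
Summed CPM (y axis, log) of each substrate group (x axis, number of members in brackets) in the 5 libraries, blue for wild type (n = 2) and red for knockout (n = 3), with bars for group means. The sums of choline, ion and sugar carriers lie higher in all knockout libraries, those of metal carriers, of vitamin, nucleoside and peptide carriers and of phosphate carriers lower, and those of the other 6 groups overlap. In the choline, ion, sugar and metal groups the separation rests on the largest member (Slc44a3, Slc24a5, Slc5a2 and Slc30a7). Without that member each of these sums overlaps between genotypes.

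Summed over all members, the groups differed by less than the spread between wild type libraries. The sum was 7594 ± 108 CPM in the knockout (SD, n = 3) and 7297 ± 338 CPM in wild type (SD, n = 2). Slc24a5 and Slc30a7 together held 30.6% of the members' counts, and without them the sums were 5203 ± 149 CPM and 5178 ± 159 CPM. Of the 91 members, 14 lay wholly above wild type in the knockout and 14 wholly below, against 18.3% and 18.2% of all genes with 20 or more counts, and 63 overlapped.

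Per length, Slc24a5 stood far above the rest. It was at 457, 550 and 498 FPKM in the knockout and 344 and 279 FPKM in wild type. Median FPKM then fell to 95.8 for Slc3a2, 73.2 for Slc44a3, 71.8 for Slc25a4 and 70.8 for Slc30a7. The last 3 medians are closer to each other than their libraries are within a group, since Slc25a4 alone ran from 41.8 to 92.1 FPKM in the knockout. Among the abundant members, Slc24a5 is known mainly from pigment cells, Slc5a2 and Slc3a1 from kidney and Slc18a2 from neurons and mast cells. All 4 have at least 100 exon bases opposite another gene (921, 597, 601 and 111), as do 42.5% of all tested members. The partners of the last 3 held few counts or none. BC017158, opposite Slc5a2, had 6, 1 and 1 against 2 and 2. Prepl, opposite Slc3a1, had 5, 4 and 6 against 7 and 7. Gm29261, opposite Slc18a2, is not listed in any library. Slc4a9, also known from kidney, has 0. The part of reads from opposite genes in any of these levels was not tested.

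**Figure D4:**
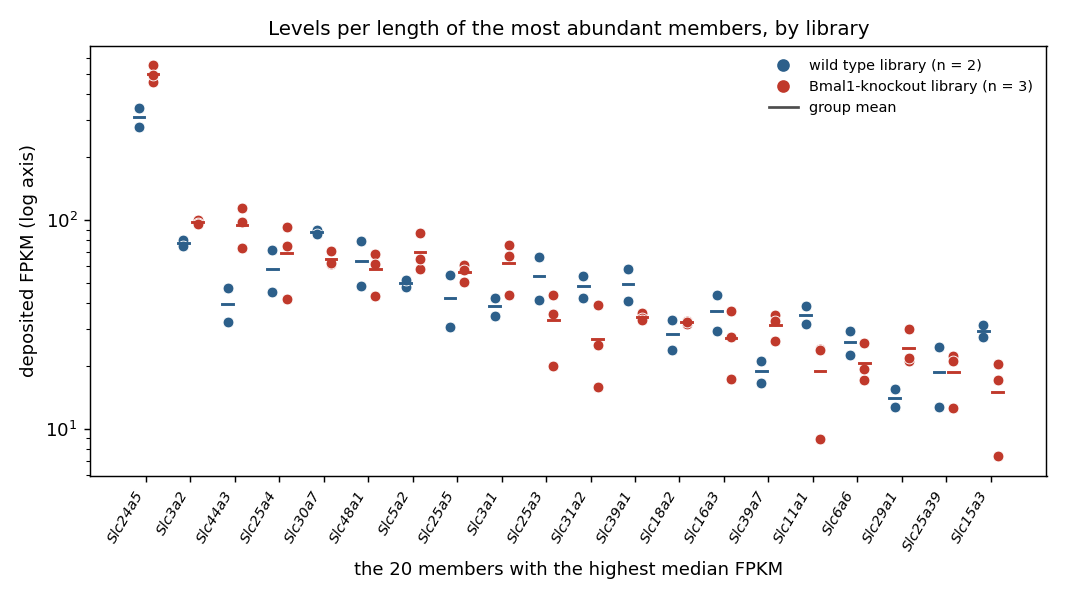
Deposited FPKM (y axis, log) of the 20 members with the highest median (x axis), blue for wild type libraries (n = 2), red for knockout libraries (n = 3) and bars for group means. Slc24a5 lies at 279 to 550 FPKM, above every value of the other 19, and Slc15a3 is the last with a median of 20.5 FPKM.

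BMAL1 and CLOCK bind the E-box CACGTG, so the members' promoters were read for it. RefSeq promoter windows of GRCm38.p6, from 250 bases before to 50 after the start of transcription, were matched for 67 of the 91 members. The E-box, which reads the same on both strands, was present in 12 of the 67 (17.9%), against 8.09% of all 27025 genes with a window, at any level of expression. Among tested genes alone the shares were close, with 4 of 28 members (14.3%) against 12.4% of all tested genes with a window. Of the called members, 5 had a window and 0 held these letters, against 9.63% of all genes past the test that have a window. Slc25a37 is named only. The tested members that held it were Slc20a1, Slc25a36, Slc29a1 and Slc31a2, none of which passed. Their stretches are shown 5′ to 3′ on the gene's strand because they are the E-boxes of carriers that could be tested, with the E-box in capitals.
Slc20a1, first site (chr2:129198586-129198615, + strand): gccagccagtccCACGTGgaccagctcctc
Slc20a1, second site (chr2:129198739-129198768, + strand): ggctcggcaggtCACGTGgggcgcagaacc
Slc25a36 (chr9:97111211-97111240, - strand): cccctgggcgatCACGTGaaagaggcgtgc
Slc29a1 (chr17:45595304-45595333, - strand): gagcagcgccagCACGTGgcgcgcatgggc
Slc31a2 (chr4:62286417-62286446, + strand): acctcaccgggcCACGTGactcgcgtggcc
Of these, Slc31a2 and Slc20a1 had lower means in the knockout, Slc29a1 a higher mean and Slc25a36 nearly equal means. A match describes letters, not a bound site.

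For contrast, 2 called members have a stretch that lies before the RefSeq start of the gene and touches no GENCODE exon, shown because they are the strongest carrier by level and the called carrier with no gene opposite it.
Slc24a5 (chr2:125068004-125068123, + strand): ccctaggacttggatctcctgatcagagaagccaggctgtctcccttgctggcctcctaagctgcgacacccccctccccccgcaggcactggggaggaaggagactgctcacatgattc
Slc29a3 (chr10:60752850-60752969, - strand): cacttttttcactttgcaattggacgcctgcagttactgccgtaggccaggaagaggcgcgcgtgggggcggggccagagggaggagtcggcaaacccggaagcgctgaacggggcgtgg
These 120 bases hold no CACGTG, which says only that the letters are not in this window.

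Members under the filter numbered 51. They held 20 to 41 counts over all libraries, and each is described by the ratio of its summed counts over scaled totals with an exact Poisson 95% interval, which covers counting error only. The interval lay above 1 in 3 of the 51, against 4.98% of all such genes, and below 1 in 3, against 6.14%. Slc7a5, the light chain that imports leucine with Slc3a2, had 7, 5 and 8 counts against 1 and 1, a ratio of 6.02 (1.46 to 53.2). Slc1a4, a carrier of alanine, serine and cysteine, had 7, 8 and 9 counts against 3 and 0, a ratio of 4.82 (1.46 to 25). Slc16a11, of the monocarboxylate family, had 3, 7 and 10 counts against 2 and 2, a ratio of 3.01 (1.01 to 12.1). In all 3 the knockout libraries lay above wild type.

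On the low side, Slc7a2, which imports arginine in macrophages and other cells, had 3, 6 and 3 counts against 12 and 8, a ratio of 0.361 (0.161 to 0.776). Slc8a1, the sodium-calcium exchanger, had 1, 4 and 5 counts against 13 and 4, where knockout 3 had more counts than wild type 2. Scaled to library size its groups did not overlap, and its ratio was 0.354 (0.145 to 0.819). Slc25a51, the mitochondrial NAD carrier, had a ratio of 0.377 (0.153 to 0.882), and its groups overlapped. In a fit of 14135 genes without the filter, 0 of the 51 passed and 5 were at an unadjusted p under 0.05. The adjusted p was 0.173 for Slc7a5 and 0.148 for Slc1a4.

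**Figure D5:**
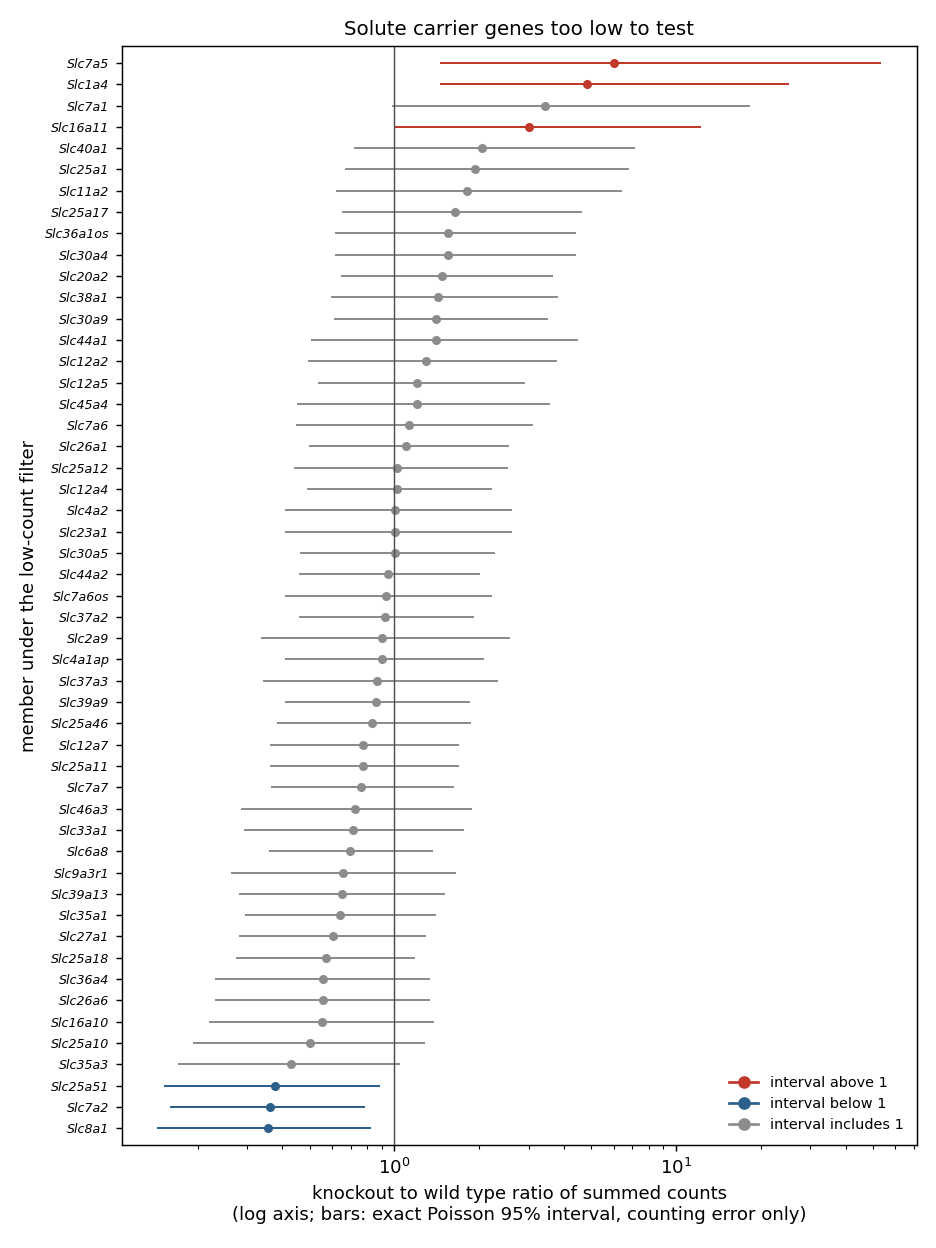
Ratio of knockout to wild type counts (x axis, log) with its exact Poisson 95% interval for the 51 members too low to test (y axis). Red intervals (Slc7a5, Slc1a4, Slc16a11) lie above 1 and blue ones (Slc25a51, Slc7a2, Slc8a1) below, and the other 45 include 1.

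Slc7a5 and Slc1a4 belong to the genes that amino acid shortage induces through ATF4, whose response element holds the core TGATGCAA. Both lay under the filter, and neither passed in the fit without it. Whether ATF4 acts on any member here was not tested. The core was found on either strand in 2 member promoters (2.99% of 67), those of Slc1a4 and Slc7a7. The share was 1.03% of all genes with a window, at any level of expression. Among tested genes alone it was in 0 of 28 members, against 0.754% of all tested genes with a window. The stretches of Slc1a4 and Slc7a7 are shown with the core in capitals, reversed and complemented in Slc1a4.
Slc1a4 (chr11:20332699-20332728, - strand): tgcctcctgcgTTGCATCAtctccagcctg
Slc7a7 (chr14:54417927-54417952, - strand): tagaagcTGATGCAAcagcttccccg
Slc7a7 had 0, 8 and 11 counts against 6 and 9, a ratio of 0.763 (0.367 to 1.61). Of 20 further genes of this response, 6 were tested, with 1 higher and 0 lower, against 8.19% and 8.14% of all tested genes. Nupr1, a stress-induced chromatin protein, was higher, at 81.7, 71.3 and 109 CPM against 47 and 31.9 CPM (log2 fold change 1.14 ± 0.43 SE, adjusted p = 0.0493). Atf4 itself, at 106, 66.6 and 93.1 CPM against 155 and 106 CPM, did not pass (adjusted p = 0.250), and 5 of the 6 did not. The 20 genes summed to 763 ± 80.6 CPM in the knockout (SD, n = 3) and 586 ± 54.7 CPM in wild type (SD, n = 2).

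Carriers known under other symbols gave 45 further genes, 7 of them tested. Of the 7, 0 were higher and 2 lower, against 8.19% and 8.14% of all tested genes. Ucp2, an uncoupling protein of the mitochondrial carrier family, was at 111, 138 and 150 CPM against 244 and 197 CPM, without overlap (log2 fold change -0.73 ± 0.26 SE, adjusted p = 0.0395). Mfsd1, a lysosomal carrier, was at 28.8, 66.6 and 52.6 CPM against 146 and 117 CPM, also without overlap (-1.40 ± 0.37, adjusted p = 0.00198).

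Of 21 partners of the carriers and pumps that build their gradients, 12 were tested. Of these 12, 2 were higher and 2 lower, against 8.19% and 8.14% of all tested genes. Bsg, which encodes basigin, the partner of the lactate carriers, was at 610, 461 and 587 CPM against 352 and 356 CPM, above wild type in every knockout library (log2 fold change 0.64 ± 0.17 SE, adjusted p = 0.00248). Emb, the other partner, was at 139, 95.1 and 121 CPM against 164 and 191 CPM and did not pass (-0.58 ± 0.28, adjusted p = 0.161). Nedd4, a ubiquitin ligase that removes carriers from the surface, was higher (0.64 ± 0.18, adjusted p = 0.00508). Sgk1, the kinase that keeps carriers at the surface, fell from 141 and 128 CPM in wild type to 52.8, 38 and 48.6 CPM (-1.52 ± 0.37, adjusted p = 6.91e-04). Fxyd5, a small regulatory membrane protein, was lower (-0.82 ± 0.23, adjusted p = 0.00545).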

How the data were processed

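Total RNA of 5 samples was sequenced as Illumina libraries, per the labels. The authors deposited a table per library with an expected count and an FPKM for each gene, per the file headers. Per the submitters' processing notes the tools were RSEM, Bowtie2, HISAT2 and StringTie and the build was mm10. Genes with no row in a library counted as 0, and expected counts were rounded.

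Knockout and wild type were compared with edgeR 4.0.16 (filterByExpr minimum count 10 and total 15, TMM scaling, robust quasi-likelihood). P-values were adjusted by Benjamini-Hochberg over all tested genes, with a limit of 0.05. The fit was also run on counts simulated from its own means and dispersions, which cannot check its assumptions. DESeq2 1.42.0 and limma 3.58.1 were alternatives. Exons of GENCODE M21 gave overlaps on opposite strands, and RefSeq (GRCm38.p6) gave positions and promoters. Replicate numbers were not shown to pair the libraries: deviations of same-numbered libraries correlated at -0.0066 and 0.0256. With 2 wild type libraries their deviations mirror each other, so these values cannot exclude pairing. The labels do not state it.

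The members, lists and tests were chosen with earlier results of these data known. Named genes were the members past the test, the 2 largest by count in each substrate group, the 5 highest by FPKM, and of each other list those past the test. Other genes were chosen after their values were seen.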

Additional observations from a re-analysis of the deposited data

How the results depend on the processing

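Depth limits most of these results, since 56 of the 91 members held fewer than 50 counts. Counts of members past the test (2 higher, 4 lower) depended on the setting. Lower members numbered 1 without the low-count filter, 1 with DESeq2 and 1 with the replicate block, where 3 were higher (Slc3a1 added), and 6 with limma voom (Slc15a3 and Slc31a2 added). Lower members ranged from 1 to 5 with a library left out, and higher members from 1 to 3. With 1 wild type library left, that library is assumed to vary like the knockout ones. Without members opposite another gene, an alternative chosen after seeing the data, 0 were higher and 1 was lower. Over all genes, 304 were higher and 302 lower, against 149 and 131 with DESeq2, and 144 to 323 and 146 to 287 with a library left out. With replicate numbers as a block, which were not shown to pair these libraries, 229 and 212 passed. In that fit Slc30a7 and Slc25a37 did not pass (adjusted p = 0.0813 and 0.339), and Slc29a3 missed (0.0576). Slc25a37 also missed with library totals (0.0612). Slc44a3 and Slc43a2 passed in every setting run. Over the alternative values of 20 named members, 244 kept side and direction, 18 lost their call, 1 gained it (Slc15a3 with limma voom) and 11 reversed, all of the last among members that did not pass. A missing adjusted p was counted as not passing. DESeq2 gave none for Slc15a3, Slc20a1 and Slc35a4, counted as kept, or for Slc29a3, counted as lost. Outside these 20, Slc3a1 gained a call with the block (adjusted p = 0.0305) and without knockout 3 (0.0333), and Slc31a2 with limma voom (0.0484) and without knockout 1 (0.0328). With a library left out, log2 fold changes ran from -0.10 to 0.41 for Slc16a6, from -0.0145 to 0.48 for Slc18a2, from -0.33 to 0.70 for Slc23a3, from -0.17 to 0.22 for Slc25a36, from -0.0248 to 0.65 for Slc25a4 and from -0.42 to 0.28 for Slc48a1. Slc25a36 was also -0.00587 at a minimum count of 20 and -0.0276 with limma voom. The cause of these changes was not tested.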
